A study of Rattus norvegicus with 14 samples.

Results

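The comparison described here sets persistent liver lesions of rats that received a placebo pellet against liver of unmanipulated rats, over 14497 genes and 6 of the 14 arrays of the series. Its members were taken by title from the labels: 3 placebo animals of the Solt-Farber model and 3 normal adult livers, 1 array each. All were male F344 rats, an inbred strain, and the labels give no age. From formalin-fixed, paraffin-embedded liver the regions were cut out by laser capture microdissection, and 150 ng of total RNA was labelled for Affymetrix Rat Gene ST 1.0 arrays. The placebo rats were injected with diethylnitrosamine at 200 mg/kg on day 1, carried a 2.5 mg pellet of 2-acetylaminofluorene (AAF, released over 14 days) from day 14, and had a partial hepatectomy and a placebo pellet on day 21. On day 70 their persistent lesions that stained for the placental glutathione S-transferase (GSTP) were captured. Normal liver came from animals without carcinogen, surgery or pellet, so the lesion, the carcinogens, the hepatectomy and the time since then cannot be told apart in this comparison. The labels do not say how many lesions of an animal were pooled. The spread between animals was estimated together with 2 further groups of 3 animals. Rapamycin foci came from the same model with 2.5 mg/kg of rapamycin per day in the 21-day pellet, and AAF/PH liver was taken on day 14 after an AAF pellet on day 1 and a partial hepatectomy on day 7.

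In the Solt-Farber model a carcinogen initiates single hepatocytes, AAF blocks the division of the other hepatocytes, and hepatectomy then lets the resistant cells grow into foci. Most of these foci remodel back to normal-looking liver, while the persistent ones can progress to cancer. GSTP, nearly absent from normal rat hepatocytes, marks them, and its gene belongs with many genes of electrophile and quinone removal to the programme of NRF2, a transcription factor that acts at antioxidant response elements.

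Levels are given as array intensity on a linear scale, in arbitrary units, for animals 1, 2 and 3 of a group. A difference is the mean log2 intensity of placebo foci minus that of normal liver, with its standard error (n = 3 animals per group). Genes with a limma p under 0.05 after Benjamini-Hochberg adjustment across the 14497 are termed called. On this rule 413 genes were higher in placebo foci and 781 were lower, so 8.24% of genes were called, 2.85% as higher and 5.39% as lower. Every placebo animal lay on 1 side of every normal animal in 30.5% of all genes, in 1189 of the 1194 called genes and in each called gene named here. Of the calls, 60 rose and 73 fell at least 4-fold, and 18 rose and 20 fell at least 8-fold. The count of calls was 675 without placebo animal 1, 763 without placebo animal 2, 606 without normal liver animal 1 and 688 without normal liver animal 3. It was 2296 (15.8% of genes) with the 6 animals alone and 6442 (44.4%) with array weights. An unadjusted limma p under 0.05, counted below for single lists, was met by 2957 of the 14497 genes. The spread of signal over genes differed between arrays: its interquartile range (log2) was 2.14 to 2.61 in placebo foci and 2.36 to 2.80 in normal liver, with overlap between the groups. After quantile normalization, which makes that spread equal, 663 genes were called higher and 702 lower, so that 48.6% of the calls were higher, against 34.6% without it. Arrays of the same group correlated at 0.979 to 0.993 and arrays of different groups at 0.940 to 0.959 (Pearson r of log2 intensity over genes, which are not independent replicates).

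**Figure D1:**
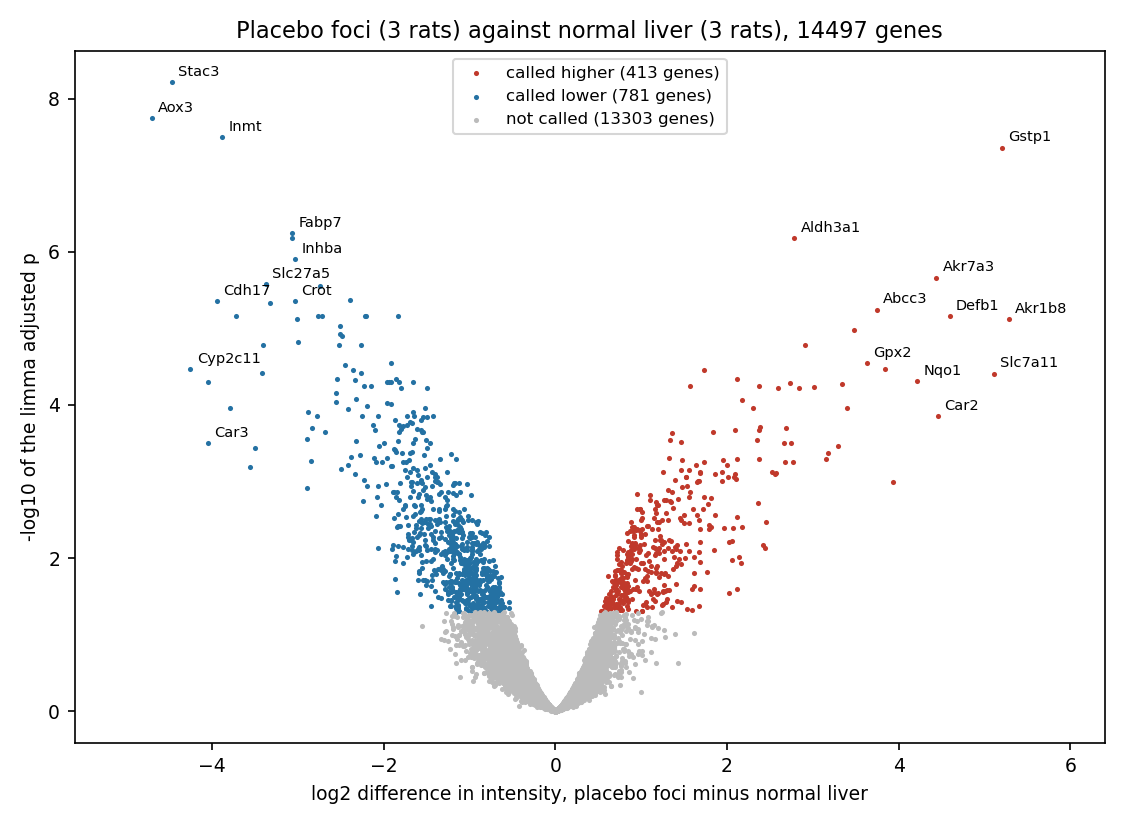
Each point is a gene, with its log2 difference between placebo foci and normal liver on the horizontal axis and the -log10 of its adjusted p on the vertical axis. The 413 genes called higher are red, the 781 called lower are blue, and Akr1b8 at 5.29 and Aox3 at -4.70 stand at the ends.

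The captured tissue was checked against its labels. Gstp1, the gene of the marker by which the foci were chosen and so no finding, had intensities of 3743, 3748 and 4639 in placebo foci, against 114, 100.1 and 116 in normal liver. Each placebo animal thus stood far above each normal animal in the gene of the mark. With no detection calls, its lower level in normal liver cannot be read as absence. Of 15 hepatocyte markers 8 fell and 0 rose, with a median of -0.86 (-0.48 after quantile normalization). In 13 all placebo animals were below the normal ones, against 15.7% of all genes. The number that fell was 5 with placebo animal 1 left out, 4 with placebo animal 2 left out, 5 with normal animal 1 left out and 5 with normal animal 3 left out. The number that rose was 1 after quantile normalization. Alb, the gene of serum albumin, stood at 6701, 6712 and 7288 in placebo foci, against 8291, 8291 and 7868 in normal liver, with a log2 difference of -0.24 ± 0.16 that was not called. In such tissue samples fewer cells of a type and less RNA per cell cannot be told apart.

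Genes of electrophile, quinone and aldehyde removal and of cystine uptake were among the 25 largest rises. Akr1b8 (probe set 10854406), an aldo-keto reductase, had an intensity of 830.5, 763 and 1336 in placebo foci, against 23.1, 23.8 and 25.98 in normal liver. Slc7a11, whose product brings in cystine in exchange for glutamate, had 256, 169 and 334 in placebo foci, against 6.02, 9.45 and 6.2 in normal liver. Nqo1, which reduces quinones by a pair of electrons at once, had 496, 447 and 669 in placebo foci, against 29.6, 25.1 and 31.2 in normal liver. For each of them the lowest placebo animal was many times above the highest normal animal. The carbonyl and quinone reductases, a list of 33 measured genes, rose in 11 members and fell in 2. At an unadjusted limma p under 0.05 there were 12 rises and 10 falls, with the 6 animals alone 12 and 10, and with array weights 15 and 15. In 16 members all placebo animals were above the normal ones and in 11 all were below, against 14.8% and 15.7% of all genes. Akr7a3, which reduces the dialdehyde of aflatoxin, was at 1992, 1906 and 2108 in placebo foci, against 95.1, 86.9 and 95.3 in normal liver (4.44 ± 0.33 log2, limma adjusted p = 2.17e-06). Ptgr1, a reductase of alkenals and prostaglandins, was at 1305, 1106 and 1586 in placebo foci, against 171, 119.6 and 150.5 in normal liver (3.18 ± 0.44). Aldh3a1, an aldehyde dehydrogenase that is low in healthy liver, was at 84.8, 71.9 and 73.6 in placebo foci, against 11.5, 11.3 and 10.5 in normal liver (2.79 ± 0.18). These 3 genes did not overlap between the groups, a condition for naming the largest rises. The 2 falls were of oxidoreductases as well: Aox3, an aldehyde oxidase, dropped to 19.1, 21.9 and 15.1 in placebo foci, against 539, 413 and 498 in normal liver, and Akr1c2, an aldo-keto reductase of steroids, to 72.2, 181 and 177 in placebo foci, against 1217, 748 and 1048 in normal liver. Probe sets of near-identical family members can bind each other's transcripts, which was not tested.

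Within the glutathione S-transferases the rise was not shared by all. Of 19 measured members, 3 were called higher, Gstp1 included, and 1 lower, with a median log2 difference of 0.36 (0.23 after quantile normalization) against 0.04 over all genes. Rises numbered 8 after quantile normalization. Gsta3, an alpha-class transferase, followed Gstp1 with 138, 128 and 191 in placebo foci, against 15.98, 14.3 and 14.3 in normal liver (3.33 ± 0.36, limma adjusted p = 5.36e-05). Gstm1, already among the bright probe sets in normal liver, rose by 0.88 ± 0.19, to 6120 in placebo foci against 3322 in normal liver as geometric means. Its call was lost with a trend in the prior variance. Gstm7, of the same mu class, was lower, at 123, 118 and 134 in placebo foci, against 432, 336 and 343 in normal liver (-1.56 ± 0.34). The call of Gstm7 was lost without normal liver animal 1. Mgst1 and Gstm2, with the brightest probe sets among the members not called, had differences of -0.30 ± 0.27 and -0.19 ± 0.36.

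Glutathione synthesis moved in the same direction as Slc7a11, with exceptions among the peroxidases. Of 31 genes of glutathione synthesis, peroxidases and thioredoxin, 9 rose and 2 fell. Falls numbered 1 with placebo animal 1 left out, 1 with placebo animal 2 left out, 0 with normal animal 1 left out and 1 with normal animal 3 left out. Gclc and Gclm, the catalytic and the modifier subunit of glutamate-cysteine ligase, the committed step of glutathione synthesis, reached 1397 in placebo foci against 209 in normal liver and 1211 in placebo foci against 204 in normal liver. Their differences were 2.74 ± 0.37 and 2.57 ± 0.39. Ggt1, gamma-glutamyltransferase, an enzyme long used to stain rat foci, was at 125, 103 and 189 in placebo foci, against 21.3, 23.4 and 22.1 in normal liver (2.60 ± 0.29). Txnrd1, thioredoxin reductase, rose by 2.08 ± 0.32. The glutathione peroxidases moved in opposite directions: Gpx2, the form of gut epithelium, had 438, 370.2 and 467 in placebo foci, against 26.5, 35.4 and 42.4 in normal liver, while Gpx1, the common cytosolic form, named after its values were seen, had 541, 464 and 636 in placebo foci, against 2083, 1530 and 1594 in normal liver. Gpx2 rose by 3.63 ± 0.36 and Gpx1 stood at -1.66 ± 0.36 (limma adjusted p = 0.0089), a call lost without normal liver animal 1. Prdx1, a peroxiredoxin, and Sod1, the cytosolic superoxide dismutase, were not called, at 0.30 ± 0.21 and -0.53 ± 0.28. Of 10 genes of the pentose phosphate path and other NADPH sources, 1 rose, Taldo1, and that call was lost on leaving out any 1 of the 6 animals.

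**Figure D2:**
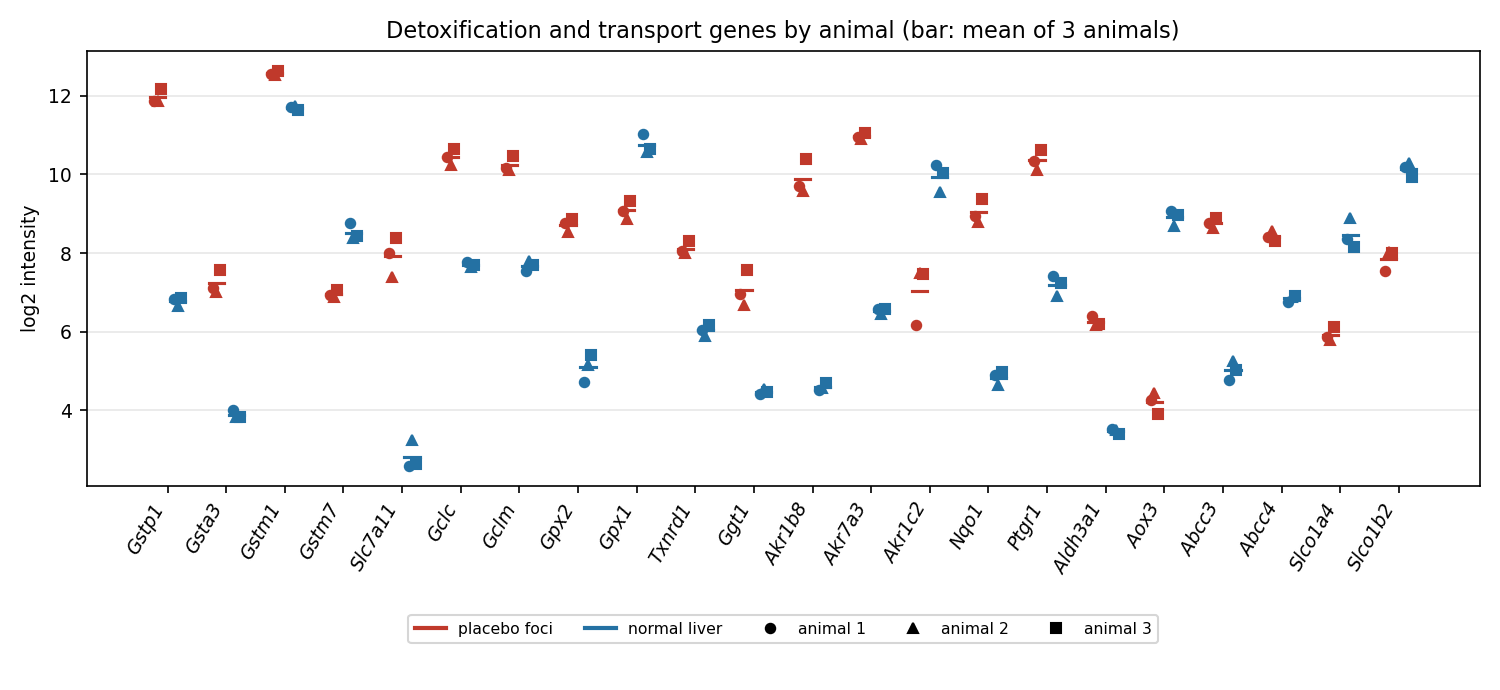
Log2 intensity of detoxification and transport genes in each animal, placebo foci in red and normal liver in blue, with a bar at the mean of 3 animals. Akr1b8, Slc7a11 and Nqo1 lie far above normal liver in each placebo animal, while Gpx1, Aox3, Gstm7, Slco1a4 and Slco1b2 lie below it.

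The proximal promoters of the genes that rose were read for the core of the antioxidant response element, TGACNNNGC on either strand, because Gstp1 and the glutathione genes moved together. Promoters were the 250 bases before and 50 after the gene's start, from RefSeq on the rat build GRCr8, and were matched to 11945 of the 14497 genes. The core was found in 13.8% of these promoters, in 17% of those of the genes called higher and in 15.8% of those called lower. Among the 25 largest rises 18 had a promoter in the table and 5 of them held the core, namely Gstp1, Gpx2, Gsta3, Clic5 and Tceal9. Gstp1 among them is the marker by which the foci were chosen. Among the 25 largest falls 22 had a promoter and 0 held it. Further motifs were searched on both strands as well. The nuclear receptor motif AGGTCA, which overlaps one form of the RORE given further on, was in 13.3% of all promoters, 10.5% of those of genes called higher and 17.2% of those called lower. The HNF1 motif GTTAAT was in 6.24%, 4.64% and 9.22% of the same sets, the E-box CACGTG in 7.89%, 9.6% and 7.53%, and the D-box TTATGTAA in 0.762%, 0.619% and 0.768%. The C/EBP motif TTGCNNAA was in 9.97%, 7.12% and 11.8% of them and the TATA box TATAAA in 11.8%, 9.91% and 11.5%. In the promoters of the 25 largest rises and of the 25 largest falls, in this order, AGGTCA was in 5.56% and 27.3%, GTTAAT in 11.1% and 4.55%, CACGTG in 5.56% and 4.55%, TTATGTAA in 5.56% and 0%, TTGCNNAA in 16.7% and 13.6% and TATAAA in 16.7% and 36.4%. These are counts of letters in a short window and say nothing of binding, and elements farther away lie outside it. The core was not found in this window of Nqo1, Akr1b8, Slc7a11, Akr7a3, Gclc, Txnrd1 or Ggt1. To show where it lies when present, the promoters of 3 risers that hold it and of Gclm, which also holds it but is not among the 25 largest rises, are given with the core in capitals.
Gstp1, chr1:210769656-210769955, minus strand: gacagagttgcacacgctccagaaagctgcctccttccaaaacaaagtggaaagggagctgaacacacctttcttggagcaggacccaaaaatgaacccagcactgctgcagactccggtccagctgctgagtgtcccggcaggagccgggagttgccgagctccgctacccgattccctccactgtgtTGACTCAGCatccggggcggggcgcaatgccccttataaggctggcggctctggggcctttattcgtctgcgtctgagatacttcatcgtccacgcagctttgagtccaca
Gpx2, chr6:101229984-101230283, minus strand: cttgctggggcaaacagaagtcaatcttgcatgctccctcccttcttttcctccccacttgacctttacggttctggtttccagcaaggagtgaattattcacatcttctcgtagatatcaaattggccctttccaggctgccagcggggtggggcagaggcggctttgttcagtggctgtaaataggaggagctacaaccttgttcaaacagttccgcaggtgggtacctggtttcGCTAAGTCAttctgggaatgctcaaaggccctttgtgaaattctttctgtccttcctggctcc
Gsta3, chr9:31154739-31155038, plus strand: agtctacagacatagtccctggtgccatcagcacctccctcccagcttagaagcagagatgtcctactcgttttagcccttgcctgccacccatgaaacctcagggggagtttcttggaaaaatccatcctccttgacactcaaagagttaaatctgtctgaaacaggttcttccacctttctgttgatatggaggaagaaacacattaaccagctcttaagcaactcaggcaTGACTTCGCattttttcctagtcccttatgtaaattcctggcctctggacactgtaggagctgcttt
Gclm, chr2:213031885-213032184, plus strand: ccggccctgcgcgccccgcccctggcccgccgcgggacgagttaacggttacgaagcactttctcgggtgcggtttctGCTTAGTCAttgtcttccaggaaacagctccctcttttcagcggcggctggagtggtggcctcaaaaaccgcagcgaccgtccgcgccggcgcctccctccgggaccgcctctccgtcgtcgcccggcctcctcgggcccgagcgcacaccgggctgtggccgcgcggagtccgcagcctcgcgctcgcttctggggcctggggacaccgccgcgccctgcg
In Gstp1 the core began 61 bases before the start, in Gpx2 13, in Gsta3 17 and in Gclm 172. Gstp1 and Gsta3 carried it on the strand of the gene, with the letters TGAC first, and Gpx2 and Gclm on the other strand.

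Transporters of drugs and organic anions moved both ways. Of 23 measured, 5 rose and 8 fell. The 5 risers were exporters of the ABC families: Abcc3, which sends conjugates back to the blood, was at 436, 398 and 476 in placebo foci, against 27.4, 38.1 and 32.8 in normal liver (3.75 ± 0.31, limma adjusted p = 5.68e-06). Abcc4, a second exporter of the basolateral side, was at 338, 378 and 316 in placebo foci, against 107, 118 and 121 in normal liver. Abcc2, the exporter of conjugates into bile, was not called, at 0.46 ± 0.33. The falls held 6 carriers of the SLC and SLCO families and 2 exporters, Abcc6 and Abcb11, which fell by 1.55 ± 0.19 and 1.21 ± 0.31. Abcb11, the bile salt exporter, was named after its values were seen and lost its call without placebo animal 1 or 2 and without normal liver animal 1 or 3. Slco1a4 had 57.9, 55.3 and 69.6 in placebo foci, against 329, 473 and 286 in normal liver and Slco1b2 had 188, 262 and 255 in placebo foci, against 1169, 1257 and 978 in normal liver. Slc22a8, an organic anion carrier, stood at -2.06 ± 0.28. Among 16 glucuronosyltransferase and sulfotransferase genes and their cofactor enzymes, 3 rose and 5 fell. The count of rises was 5 after quantile normalization. Ugdh, which makes the glucuronate donor, rose by 2.17 ± 0.41, whereas several sulfotransferases fell: Sult2a1, which acts on steroids and bile acids, dropped to 11.1, 60.3 and 41.2 in placebo foci, against 358, 319 and 349.8 in normal liver. Sult1c3, of another sulfotransferase family, was at 81.4, 154 and 123 in placebo foci, against 875, 908 and 788 in normal liver, and Sult1c2 stood at -2.76 ± 0.24. Placebo animal 1 was the lowest of the 3 in both Sult2a1 and Sult1c3.

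Beyond detoxification, the large rises took in secreted, membrane-binding and cytoskeletal genes. Defb1, a beta-defensin of epithelia, was at 310.5, 328 and 454 in placebo foci, against 11.8, 20.2 and 13.9 in normal liver (4.59 ± 0.39, limma adjusted p = 6.97e-06). Pcp4, which tunes calmodulin and is best known from neurons, was at 317, 408 and 479 in placebo foci, against 25.4, 45.7 and 38.9 in normal liver. Nefl, the light chain of neurofilaments, was at 125, 85.1 and 189 in placebo foci, against 11.8, 12.8 and 11.4 in normal liver. None of these genes is on the list of hepatocyte markers. Their placebo animals all stood above the normal ones, a condition for naming the largest rises. Mmd, a membrane protein first seen in maturing macrophages, rose by 3.29 ± 0.45, Clic5, a chloride channel-like protein, by 2.91 ± 0.28, and Tubb6, a beta-tubulin, by 2.77 ± 0.40. Tes, an actin-linked LIM protein, and the X-linked genes Bex3 and Tceal9 rose by 2.74 ± 0.30, 2.84 ± 0.31 and 3.02 ± 0.33. The list of defensins, annexins and S100 proteins rose in 10 of 30 measured members and fell in 1, with a median of 0.40. Called rises were 6 with placebo animal 3 left out, 5 with normal animal 1 left out and 6 with normal animal 2 left out. The count of falls was 0 with placebo animal 1 left out, 0 with placebo animal 2 left out, 2 with placebo animal 3 left out, 0 with normal animal 1 left out and 0 with normal animal 2 left out. Anxa2, a membrane-binding annexin, was at 313, 217 and 439 in placebo foci, against 35.9, 27.3 and 42.8 in normal liver, and its partner S100a10 at 973, 882 and 1212 in placebo foci, against 172, 157 and 189 in normal liver. The pair thus moved together, by 3.16 ± 0.45 and 2.56 ± 0.39 log2. Anxa7 and Anxa1 rose by 1.73 ± 0.25 and 1.41 ± 0.30.

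The isoforms of carbonic anhydrase, the enzyme that hydrates carbon dioxide, moved in opposite directions. Car2, the fast cytosolic form of red cells, duct and kidney epithelia, was at 1117, 906 and 1407 in placebo foci, against 74.1, 35.7 and 50.3 in normal liver. Car3, the slow form that is abundant in male rat liver, was at 56.9, 171 and 53.1 in placebo foci, against 1043, 1716 and 1302 in normal liver. The groups did not overlap in either gene, a condition for naming the largest rises and falls. The differences were 4.46 ± 0.54 (limma adjusted p = 0.000139) and -4.05 ± 0.54 (adjusted p = 0.000316). Car5a, the mitochondrial form that feeds urea and glucose synthesis, fell by 1.19 ± 0.21. The other 12 of 15 measured isoforms were not called, with differences between -0.53 ± 0.27 for Car1 and 0.29 ± 0.19 for Car9. Of 7 red cell markers 0 were called higher (0 also at an unadjusted limma p under 0.05) and 2, both haemoglobin genes, lower. Of 13 bile duct markers 3 rose, namely Ggt1, Krt19 and Epcam, and 1 fell. Ggt1, also used to stain foci, alone had 103 to 189 in placebo foci, against 21.3 to 23.4 in normal liver. The 13 markers summed to 514.4 to 849.5 in placebo foci and 326.3 to 377.5 in normal liver. Their part in the rise of Car2 was not tested.

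The 25 largest falls held enzymes, transporters, receptors and secreted proteins. Stac3 (probe set 10895915), an adaptor best known from muscle, had 17.9, 21.1 and 14.4 in placebo foci, against 402, 363 and 400.1 in normal liver, and Inmt, which methylates indoleamines, had 12.4, 12.8 and 13.4 in placebo foci, against 182, 246 and 152 in normal liver. Fabp7, a fatty acid binding protein best known from brain, had 45.1, 65.3 and 53.2 in placebo foci, against 399.6, 534 and 433 in normal liver. In all 3 the highest placebo animal was several times below the lowest normal animal. Hao2, a peroxisomal hydroxy acid oxidase, was at 34.6, 86.4 and 46.4 in placebo foci, against 541, 584 and 528 in normal liver (-3.41 ± 0.35). Angptl4, an inhibitor of lipoprotein lipase, was at 31.04, 26.7 and 45.99 in placebo foci, against 463, 258 and 378 in normal liver (-3.40 ± 0.32), and Crot, which hands shortened acyl chains from peroxisomes to carnitine, at 32.7, 33.2 and 56.6 in placebo foci, against 324, 298 and 350.2 in normal liver (-3.03 ± 0.24). Slc27a5, the bile acid ligase, and Pdk4, a brake on glucose oxidation, stood at -3.38 ± 0.25 and -2.88 ± 0.34. Ust5r, an organic anion transporter-like protein, Lyc2, a lysozyme, and Fgl1, a fibrinogen-like protein of hepatocytes, stood at -3.32 ± 0.27, -2.85 ± 0.41 and -2.84 ± 0.36. Cyp2c11, the male-specific cytochrome P450 of rat liver, was at 52.05, 230.0 and 60.8 in placebo foci, against 1729, 1999 and 1455 in normal liver (-4.25 ± 0.43). In Cyp2c11 and in Car3, also of the male pattern, placebo animal 2 was the highest of the 3. Cdh17, a cadherin of liver and intestine, was at 18.6, 37.1 and 30.1 in placebo foci, against 401, 422 and 443 in normal liver. Among 30 genes of membrane receptors, their ligands and prostaglandin handling, 2 rose and 9 fell. The number that rose was 1 with placebo animal 1 left out, 1 with placebo animal 2 left out, 1 with normal animal 1 left out and 1 after quantile normalization. Avpr1a, the vasopressin receptor of hepatocytes, was at 25.3, 49.5 and 40.6 in placebo foci, against 567, 418 and 496 in normal liver (-3.73 ± 0.32, limma adjusted p = 6.97e-06). Agt, angiotensinogen, and Agtr1a, the angiotensin receptor, fell by 1.68 ± 0.26 and 1.57 ± 0.27.

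**Figure D3:**
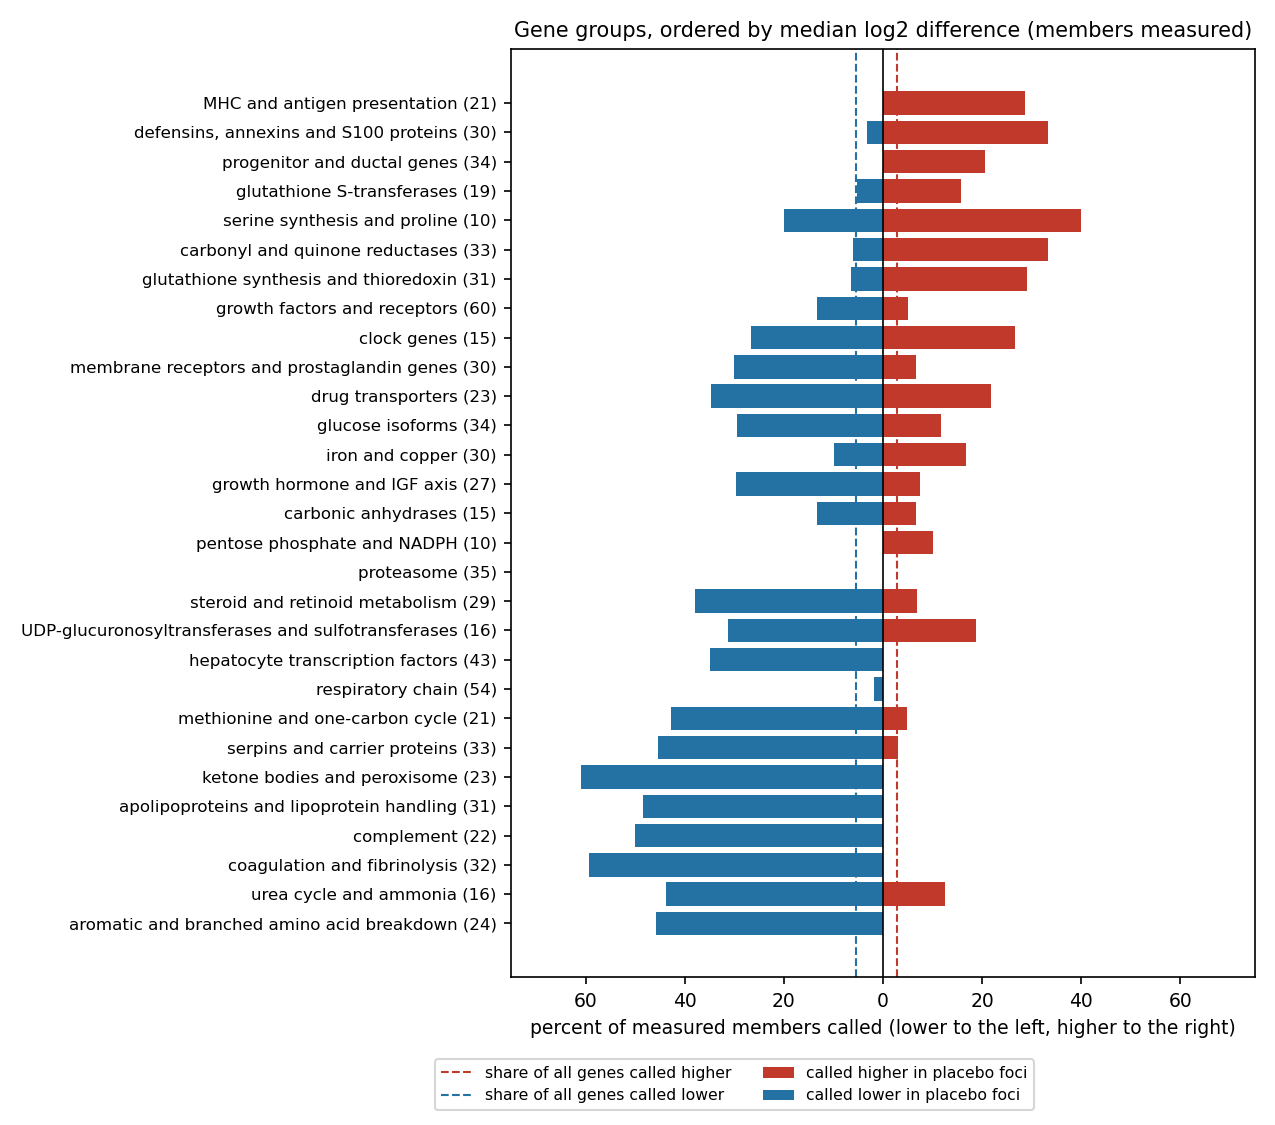
Bars give the percentage of the measured members of each gene group (number in brackets) that were called lower, to the left, or higher, to the right, in placebo foci, and dashed lines give the same over all genes (5.39% lower and 2.85% higher). Amino acid breakdown, coagulation, complement, apolipoprotein and peroxisome groups reach left, and reductase, glutathione, annexin and MHC groups reach mainly right. The groups of drug transporters and of glucuronosyltransferases and sulfotransferases reach both ways.

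Nitrogen and amino acid metabolism was lower at many steps. Of 24 genes that break down aromatic and branched amino acids, lysine and histidine, 11 fell and 0 rose (15 and 1 at an unadjusted limma p under 0.05), with a median of -1.02 (-0.61 after quantile normalization). Called falls were 6 with placebo animal 1 left out, 7 with placebo animal 2 left out, 5 with normal animal 1 left out and 7 with normal animal 3 left out. Kynu, of the kynurenine path from tryptophan, was at 92.2, 117 and 173 in placebo foci, against 749, 670.4 and 673 in normal liver (-2.50 ± 0.37). Acmsd, at the branch of that path away from NAD, stood at -1.87 ± 0.23, Hal, which starts histidine breakdown, at -1.87 ± 0.26 and Aass, which starts lysine breakdown, at -2.23 ± 0.34. Fah, Aldh6a1 and Hgd, with the brightest probe sets among the other members, were not called, at -0.84 ± 0.36, -0.57 ± 0.31 and -0.99 ± 0.40. Among 16 genes of the urea cycle and ammonia, 7 fell and 2 rose. The number that fell was 4 with placebo animal 1 left out, 4 with placebo animal 2 left out, 3 with normal animal 1 left out and 3 with normal animal 3 left out. Oat, ornithine aminotransferase, fell to 34.01, 57.4 and 47.2 in placebo foci, against 379, 358 and 343 in normal liver, and Nags, which makes the activator of the first step of the cycle, to 50.9, 59.1 and 67.2 in placebo foci, against 203, 147 and 195 in normal liver. Gls2, the liver glutaminase, stood at -1.46 ± 0.26. Rhbg, an ammonium channel, and Asns, asparagine synthetase, were the risers, by 1.67 ± 0.26 and 0.88 ± 0.18. Arg1, arginase, was not called (-0.49 ± 0.34). The methionine and one-carbon cycle fell in 9 and rose in 1 of 21. Falls numbered 5 with normal animal 1 left out. Rises numbered 0 with placebo animal 1 left out, 0 with placebo animal 3 left out, 0 with normal animal 1 left out, 0 with normal animal 2 left out and 0 with normal animal 3 left out. Cbs, which commits homocysteine to cysteine, was at 114, 109 and 116 in placebo foci, against 388, 284 and 452 in normal liver, and Ahcy, which splits S-adenosylhomocysteine, fell by 1.03 ± 0.16, a call that quantile normalization ended. Serine and proline went the other way: of 10 genes 4 rose, all of synthesis, and 2 fell, both of oxidation. The count of rises was 2 with placebo animal 1 left out, 2 with normal animal 1 left out, 2 with normal animal 3 left out and 2 after quantile normalization. Pycr1 and Phgdh, of proline and serine synthesis, rose by 1.27 ± 0.21 and 0.89 ± 0.18, while Prodh and Prodh2, which oxidise proline and hydroxyproline, stood at -2.33 ± 0.25 and -1.51 ± 0.25. The call of Phgdh was lost after quantile normalization.

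Secreted products of the hepatocyte were lower across the coagulation and complement cascades. In coagulation and fibrinolysis 19 of 32 measured members fell, 0 rose (23 and 1 at an unadjusted limma p under 0.05), and the median was -0.92 (-0.51 after quantile normalization). The count of falls was 10 with placebo animal 1 left out, 10 with placebo animal 2 left out, 9 with normal animal 1 left out, 11 with normal animal 3 left out and 11 after quantile normalization. Vtn, vitronectin, an adhesive plasma protein, had 769.8, 962 and 1033 in placebo foci, against 3051, 2781 and 3056 in normal liver (-1.70 ± 0.21, limma adjusted p = 0.000167). F11 and F10, clotting factors XI and X, fell by 1.54 ± 0.25 and 1.43 ± 0.25, and Pros1, the anticoagulant protein S, by 1.58 ± 0.28, so that clotting and anticlotting members both fell. Complement fell in 11 of 22 and rose in 0 (15 and 1 at an unadjusted p under 0.05), with a median of -0.90 (-0.46 after quantile normalization). Called falls were 4 with placebo animal 1 left out, 5 with placebo animal 2 left out, 5 with normal animal 1 left out and 5 with normal animal 3 left out. Called rises were 2 after quantile normalization. C6, of the membrane attack complex, was at 57.4, 48.2 and 84.2 in placebo foci, against 455, 343 and 397 in normal liver (-2.69 ± 0.35). Masp1 and Mbl2, of the lectin path, stood at -1.67 ± 0.23 and -1.74 ± 0.25. C3, the central component, was not called (-0.56 ± 0.19, limma adjusted p = 0.0885), though all its placebo animals were below the normal ones. Serpins and carrier proteins fell in 15 and rose in 1 of 33. Serpina4, kallistatin, had 285, 315 and 363 in placebo foci, against 2060, 1430 and 1564 in normal liver. Serpinb1a, a serpin of the cell interior that blocks neutrophil proteases, was the riser, at 62.9, 70.4 and 89.95 in placebo foci, against 15.4, 23.2 and 24.6 in normal liver. Apolipoproteins and lipoprotein handling fell in 15 of 31 and rose in 0 (19 and 1 at an unadjusted p under 0.05). The number that rose was 1 after quantile normalization. Apoa4 was at 252, 277 and 284 in placebo foci, against 1508, 1079 and 1226 in normal liver (-2.22 ± 0.19), and Apoa5, Apom and Apoc2 fell by 1.67 ± 0.21, 2.02 ± 0.29 and 1.92 ± 0.28. Apoa1, Apoe and Apob, the main structural proteins of lipoproteins, were not called, at 0.41 ± 0.28, -0.67 ± 0.22 and -0.56 ± 0.21. All placebo animals were below the normal ones in Apob and above them in Apoa1, while the groups overlapped in Apoe.

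In glucose metabolism the falls included liver isoforms, and the rises were of forms found in other tissues. Of 34 measured genes 10 fell and 4 rose (12 and 9 at an unadjusted limma p under 0.05). The number that fell was 6 with placebo animal 1 left out, 5 with placebo animal 2 left out, 5 with normal animal 1 left out and 5 with normal animal 3 left out. Rises numbered 2 with placebo animal 3 left out, 2 with normal animal 1 left out and 1 with normal animal 3 left out. Gckr, the regulator of glucokinase, was at 93.5, 106 and 127 in placebo foci, against 454, 347 and 430.0 in normal liver (-1.92 ± 0.22, limma adjusted p = 9.69e-05). Pklr, the pyruvate kinase of liver and red cells, was at 158, 178 and 150.3 in placebo foci, against 779, 309 and 418 in normal liver, and G6pc1, which releases free glucose, fell by 1.42 ± 0.28. Ldha fell as well, by 1.60 ± 0.39, a call that was lost without placebo animal 1 or 2 and without normal liver animal 1 or 3. The risers were Pygb, the brain form of glycogen phosphorylase, at 30.1, 32.9 and 52.6 in placebo foci, against 17.3, 18.4 and 19.00 in normal liver, with Hk1, Pfkp and Pfkfb3 by 0.77 ± 0.19, 0.84 ± 0.23 and 0.70 ± 0.16. Each of the last 3 lost its call without single animals: Hk1 and Pfkp without placebo animal 3 or normal liver animal 1 or 3, Pfkp also without normal liver animal 2, and Pfkfb3 without placebo animal 2 or normal liver animal 3. Pkm, the pyruvate kinase of growing tissue, was not called, at 0.71 ± 0.30 with a 95% interval of 0.07 to 1.34. For ketone bodies and peroxisomes, 14 of 23 members fell with 0 rises (17 and 0 at an unadjusted limma p under 0.05). Falls numbered 7 with placebo animal 1 left out, 6 with placebo animal 2 left out, 6 with normal animal 1 left out and 7 with normal animal 3 left out. Besides Crot and Hao2, Acox2, the oxidase of branched acyl chains, had 218, 248 and 262 in placebo foci, against 789, 639.9 and 805 in normal liver and Ehhadh, the bifunctional enzyme, fell by 1.65 ± 0.32. Steroid and retinoid metabolism fell in 11 and rose in 2 of 29. The count of rises was 1 with placebo animal 1 left out, 1 with placebo animal 3 left out, 1 with normal animal 1 left out, 1 with normal animal 2 left out and 1 with normal animal 3 left out. Hsd3b5, a steroid dehydrogenase with male-biased expression in rodent liver, was at 81.6, 149 and 159.6 in placebo foci, against 836, 869 and 851 in normal liver (-2.77 ± 0.34).

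Calls in the respiratory chain and the proteasome depended on the fit. In the respiratory chain 1 of 54 subunit genes was called, Ndufv3 of complex I, at -1.24 ± 0.26, yet the median of the list was -0.65 (-0.20 after quantile normalization) and 38 genes had placebo animals all below normal ones, against 15.7% of all genes. With the 6 animals of the comparison alone 34 were called lower and 1 higher, with array weights 49 and 1, and after quantile normalization 4 and 1. Of 35 proteasome genes limma called 0 (0 higher and 2 lower at an unadjusted p under 0.05), with a median of -0.35 (-0.02 after quantile normalization). The 6 animals alone gave 2 lower and 0 higher, array weights 28 lower and 0 higher, and quantile normalization 0 lower and 2 higher.

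Transcription factors of the hepatocyte were lower in part. Of 43 measured, 15 fell and 0 rose (26 and 1 at an unadjusted limma p under 0.05), with a median of -0.63 (-0.33 after quantile normalization). Called rises were 1 after quantile normalization. Foxa1, a pioneer factor of liver development, had 27.5, 29.2 and 38.3 in placebo foci, against 97.7, 88.95 and 92.3 in normal liver (-1.57 ± 0.19, adjusted p = 0.000157). Onecut1, which acts with it, stood at -1.72 ± 0.26, Nr1h4, the bile acid receptor FXR, at -1.55 ± 0.29 and Creb3l3, a membrane-bound factor of lipid and iron genes, at -1.34 ± 0.21. Hnf4g fell by 1.44 ± 0.23, but Hnf4a, the main factor of hepatocyte identity, was not called (-0.66 ± 0.25, 95% interval -1.20 to -0.13), and neither was Cebpa (-0.62 ± 0.20). On the progenitor and ductal side 7 of 34 measured members rose, 0 fell (11 and 1 at an unadjusted p under 0.05). The number that rose was 4 with placebo animal 1 left out and 4 with normal animal 3 left out. Sox4, a factor of duct formation, had 88.2, 64.2 and 116 in placebo foci, against 30.6, 28.2 and 29.2 in normal liver. Krt19, a duct keratin, had 96.2, 60.5 and 273 in placebo foci, against 16.9, 22.6 and 25.4 in normal liver and was highest in placebo animal 3. Krt8 and Krt18, the keratins of all hepatocytes, were not called (1.15 ± 0.37 and 0.50 ± 0.36).

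Several genes of the growth hormone and IGF axis were lower. Of 27 genes 8 fell and 2 rose, a called share of 37%, against 8.24% of all genes (5.39% lower and 2.85% higher). The median of the list was -0.14 (-0.04 after quantile normalization and -0.02 with normal animal 1 left out, relative to all genes). The count of falls was 5 with normal animal 1 left out. Rises numbered 0 with placebo animal 1 left out, 1 with placebo animal 2 left out, 1 with placebo animal 3 left out, 0 with normal animal 1 left out, 1 with normal animal 2 left out and 0 with normal animal 3 left out. Stat5b, which carries the signal of the growth hormone receptor, had 29.3, 32.1 and 31.8 in placebo foci, against 84.1, 50.2 and 75.8 in normal liver (-1.14 ± 0.24), a call lost without normal liver animal 1. Igf1 had 607, 781 and 853 in placebo foci, against 1896, 1852 and 1858 in normal liver (-1.34 ± 0.26, limma adjusted p = 0.00457), and Igfals, which holds IGF in the circulation, 125, 152 and 138 in placebo foci, against 543, 422 and 574 in normal liver. Socs2 and Cish, both targets and brakes of the pathway, were at 38.1, 54.95 and 99.4 in placebo foci, against 273, 323 and 355 in normal liver and at 27.4, 74.2 and 149 in placebo foci, against 239, 238 and 252 in normal liver. All 3 placebo animals were under the normal animals in these genes, and in Cish they differed among themselves, with animal 1 lowest and animal 3 highest. Among 60 growth factors, receptors and immediate targets, 8 fell and 3 rose (16 and 12 at an unadjusted limma p under 0.05). The called share was 18.3%, against 8.24% of all genes (5.39% lower and 2.85% higher), and the median was 0.09. The count of rises was 1 with placebo animal 1 left out and 1 with normal animal 1 left out. The activin subunit genes moved together: Inhba was at 23.3, 19.1 and 20.2 in placebo foci, against 221, 123 and 180.2 in normal liver (-3.03 ± 0.21, limma adjusted p = 1.24e-06), while Inhbc and Inhbe stood at -2.27 ± 0.22 and -1.92 ± 0.20. Egfr, the receptor of epidermal growth factor, was at 98.8, 90.4 and 163 in placebo foci, against 375, 441 and 532 in normal liver and Dusp6, a phosphatase induced by ERK signals, at 37.1, 60.8 and 84.00 in placebo foci, against 291, 238 and 218 in normal liver. Fgfr4, the hepatocyte receptor of bile acid-induced FGF, fell by 1.11 ± 0.18.

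Called clock genes moved in both directions. The clock consists of activators (Bmal1 with Clock or Npas2) that act on E-boxes, of the repressors they induce (Per and Cry), and of Nr1d1 and Nr1d2, which repress Bmal1, Npas2, Cry1 and Nfil3 through RORE elements. Of 15 measured genes 4 rose and 4 fell. Clock, Bhlhe40 and Tef, the brightest of the 7 not called, stood at -0.88 ± 0.30, -0.46 ± 0.34 and 0.25 ± 0.19. The other uncalled genes were named after their values were seen. Per1, Per2, Cry2 and Bhlhe41 stood at 0.62 ± 0.33, -0.09 ± 0.235, 0.06 ± 0.19 and 0.24 ± 0.18, so the Per and Cry genes did not move as 1 arm. Bmal1 was at 21.8, 23.8 and 53.3 in placebo foci, against 124, 98.3 and 108 in normal liver (-1.86 ± 0.31, limma adjusted p = 0.0016). Npas2 was at 27.8, 36.2 and 47.9 in placebo foci, against 110.1, 115 and 117 in normal liver (-1.65 ± 0.20) and Cry1 at 17.8, 17.9 and 16.5 in placebo foci, against 72.4, 39.1 and 75.1 in normal liver (-1.78 ± 0.22). Nfil3, a repressor of clock outputs, stood at -1.61 ± 0.24. Among the risers Nr1d1 had 155, 139 and 134 in placebo foci, against 25.2, 58.1 and 24.6 in normal liver (2.104 ± 0.33). Dbp, an output factor of E-boxes, had 293, 239 and 101 in placebo foci, against 58.03, 52.8 and 53.8 in normal liver (1.81 ± 0.30). Per3 and Nr1d2, named after their values were seen to complete the 8 calls, rose by 1.07 ± 0.20 and 0.70 ± 0.17. Nr1d2 lost its call without placebo animal 1 or 2 and without normal liver animal 1 or 3. Placebo animal 3 was nearest to normal liver in Bmal1, Npas2 and Dbp. The labels give no hour of collection, so the phase of the day cannot be told apart from the groups. The letters AGTAGGTNA, the end of a form of the RORE, were found on either strand in 60 of the 11945 promoters (0.502%) and in 4 of the 651 of genes called lower (0.614%). The promoters of Npas2 and Nfil3 did not hold these letters, and that of Cry1 was not analysed here. Bmal1 holds 2 copies, 54 and 18 bases before its start. They are in capitals in its promoter, shown because Bmal1 is a textbook target of Nr1d1.
Bmal1, chr1:176766078-176766377, plus strand: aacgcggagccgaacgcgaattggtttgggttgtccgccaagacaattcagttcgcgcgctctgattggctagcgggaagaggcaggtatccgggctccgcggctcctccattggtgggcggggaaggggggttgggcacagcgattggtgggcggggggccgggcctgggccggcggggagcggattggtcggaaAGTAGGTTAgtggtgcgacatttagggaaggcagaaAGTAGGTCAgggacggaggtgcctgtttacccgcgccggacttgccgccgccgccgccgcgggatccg

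**Figure D4:**
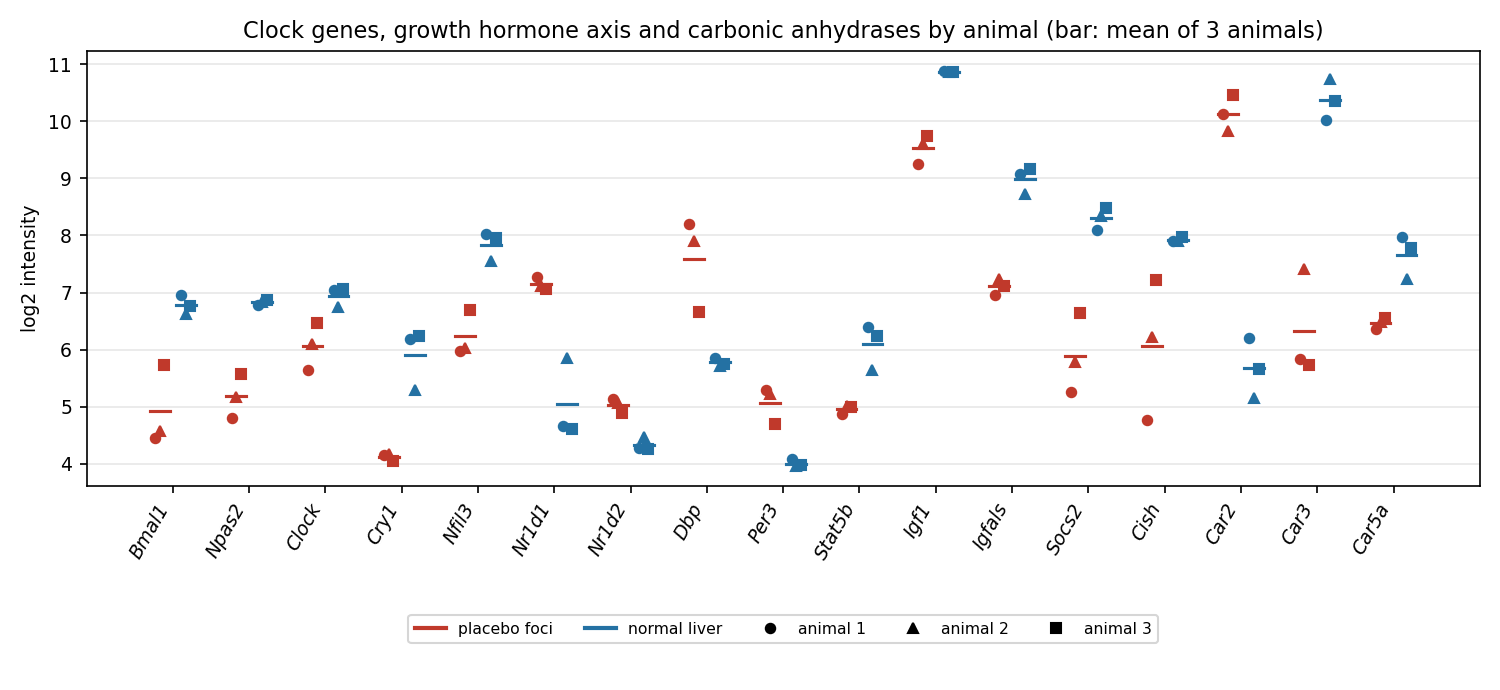
Log2 intensity in each animal of clock genes, of genes of the growth hormone axis and of 3 carbonic anhydrases, placebo foci in red and normal liver in blue, with a bar at the mean of 3 animals. Bmal1, Npas2, Cry1 and Nfil3 lie below normal liver in placebo foci and Nr1d1, Dbp and Per3 above it.

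Of 30 genes of iron and metal handling 5 rose and 3 fell (6 and 10 at an unadjusted limma p under 0.05). The called share was 26.7%, against 8.24% of all genes (2.85% higher and 5.39% lower), and the median was -0.12. Called falls were 5 with placebo animal 3 left out. Called rises were 3 with placebo animal 1 left out, 3 with placebo animal 2 left out, 3 with placebo animal 3 left out, 1 with normal animal 1 left out, 3 with normal animal 2 left out and 3 with normal animal 3 left out. Mt1 and Mt2A, metallothioneins that bind zinc and copper, rose by 1.69 ± 0.34 and 2.14 ± 0.47, with geometric means of 2451 in placebo foci against 759.8 in normal liver for Mt1 and 1111 in placebo foci against 252 in normal liver for Mt2A. Mt2A lost its call without normal liver animal 1. Tfr2, the iron sensor of hepatocytes, had 153, 152 and 198 in placebo foci, against 408, 344 and 444 in normal liver (-1.25 ± 0.20).

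Several genes of class II antigen presentation rose. Of 21 genes of the MHC and antigen presentation, 6 rose and 0 fell (11 and 0 at an unadjusted limma p under 0.05), and all 6 belong to class II. RT1-Ba had 142, 126 and 239.9 in placebo foci, against 33.96, 51.5 and 43.1 in normal liver (1.95 ± 0.29, adjusted p = 0.000744), and RT1-Bb 119, 128 and 272 in placebo foci, against 39.3, 42.2 and 43.9 in normal liver. Cd74, the invariant chain, had 723, 640.5 and 1859 in placebo foci, against 164, 264 and 273 in normal liver and RT1-Da 232, 228 and 535 in placebo foci, against 62.6, 76.3 and 80.5 in normal liver. Placebo animal 3 was the highest in each of these 4 genes. RT1-Db1 rose by 1.22 ± 0.24, and RT1-DMa by 1.11 ± 0.29, a call that was lost without placebo animal 3 and without normal liver animal 1 or 3. RT1-DMb was not called, at 1.04 ± 0.36. RT1-DOa, RT1-DOb and Ciita, the class II activator, named after their values were seen, were not called either, at 0.40 ± 0.17, 0.29 ± 0.22 and 0.61 ± 0.23. Class II is carried by macrophages, dendritic cells and B cells. Of 18 Kupffer cell and macrophage markers 0 rose and 2 fell (2 and 6 at an unadjusted p under 0.05, and 2 and 1 called after quantile normalization), with a summed intensity of 1484 to 2357 in placebo foci and 1776 to 2186 in normal liver. Marco and Vsig4, of resident macrophages, fell by 1.82 ± 0.23 and 1.22 ± 0.34, the second being lost on leaving out any 1 of the 6 animals. Of 18 lymphocyte markers limma called 0 (3 higher and 0 lower at an unadjusted p under 0.05), with sums of 362.3 to 424.4 in placebo foci and 317.6 to 374.1 in normal liver. Their part in the class II rise was not tested.

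Markers of the other cell types that a captured region can hold were counted in the same way. Over all genes 8.24% were called, 2.85% as higher and 5.39% as lower. Of the markers, 7.14% were called for endothelium, 8.33% for neutrophils, 11.1% for Kupffer cells and macrophages and 15% for stellate cells and matrix. The share was 28.6% for red cells, 30.8% for bile duct, 53.3% for hepatocytes and 0% for lymphocytes. Bile duct markers rose in 3 of 13 and fell in 1. Their summed intensity, which includes Ggt1, an enzyme also used to stain foci, was 514.4 to 849.5 in placebo foci and 326.3 to 377.5 in normal liver. The risers were Ggt1, Krt19 and Epcam, of which Epcam (1.42 ± 0.32) was lost without placebo animal 3 or normal liver animal 3, and Krt7 was not called (0.54 ± 0.21). Stellate and matrix markers rose in 3 of 20 and fell in 0 (5 and 0 at an unadjusted limma p under 0.05), with sums of 1299 to 1847 in placebo foci and 1081 to 1402 in normal liver. Lox and Col4a1, an enzyme and a collagen of the matrix, rose by 1.00 ± 0.19 and 0.84 ± 0.17. Of 14 endothelial markers 1 fell and 0 rose (2 and 0 at an unadjusted p under 0.05), with sums of 817.9 to 1092 in placebo foci and 1159 to 1211 in normal liver. The faller, Kdr, was lost on leaving out any 1 of the 6 animals except placebo animal 3. Neutrophil markers summed to 215.7 to 260.2 in placebo foci and 155.1 to 213.7 in normal liver, with 1 of 12 called, as higher. That gene, Fcgr3a, lost its call without placebo animal 3 and without normal liver animal 1, 2 or 3, and S100a9, of neutrophils, was at -0.74 ± 0.43 and not called. Red cell markers summed to 527.2 to 605.2 in placebo foci and 1033 to 1577 in normal liver, so that red cell RNA moved with the groups. The 15 hepatocyte markers summed to 29870 to 35420 in placebo foci and 42750 to 45480 in normal liver, of which 11 were lower and 0 higher at an unadjusted p under 0.05. The part of these cells in the results on other gene groups was not tested.

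The 3 placebo animals were not alike in everything. In 163 genes animal 3 lay more than 1 log2 unit from the mean of the other two, 151 of them higher, against 45 genes for animal 1 and 53 for animal 2. Over all genes the median SD was 0.21 log2 in placebo foci and 0.17 in normal liver, and a range over 2 log2 units was seen in 15 genes among placebo animals and 4 among normal animals. The genes of widest range, taken among those brighter than the median gene and given as a description, were mostly high in animal 3. Gbp5 and Gbp2, interferon-induced guanylate-binding proteins, had 34.3, 26.3 and 167 in placebo foci, against 22.1, 16.1 and 21.8 in normal liver and 41.5, 36.98 and 187 in placebo foci, against 32.8, 30.1 and 25.5 in normal liver. Irgm, another interferon-induced GTPase, had 47.6, 57.4 and 256 in placebo foci, against 88.8, 64.3 and 80.9 in normal liver and the chemokine gene Cxcl10 55.4, 42.05 and 206 in placebo foci, against 21.9, 31.7 and 24.2 in normal liver. In these 4 genes placebo animal 3 stood far above the other two, and none was called. Pla2g7, a phospholipase that cleaves platelet-activating factor, was called but uneven, at 103, 72.8 and 498 in placebo foci, against 9.52, 11.3 and 9.62 in normal liver. Phlda1, a growth-responsive protein of apoptosis, had 51.4, 92.8 and 313 in placebo foci, against 54.1, 57.6 and 47.7 in normal liver, and Akr1c15, an aldo-keto reductase, 37.3, 56.2 and 208 in placebo foci, against 46.1, 39.5 and 37.04 in normal liver, and neither was called. Cish and Sult2a1 differed in another order, with animal 1 lowest. Without placebo animal 3 the comparison called 1106 genes, 311 higher and 795 lower.

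**Figure D5:**
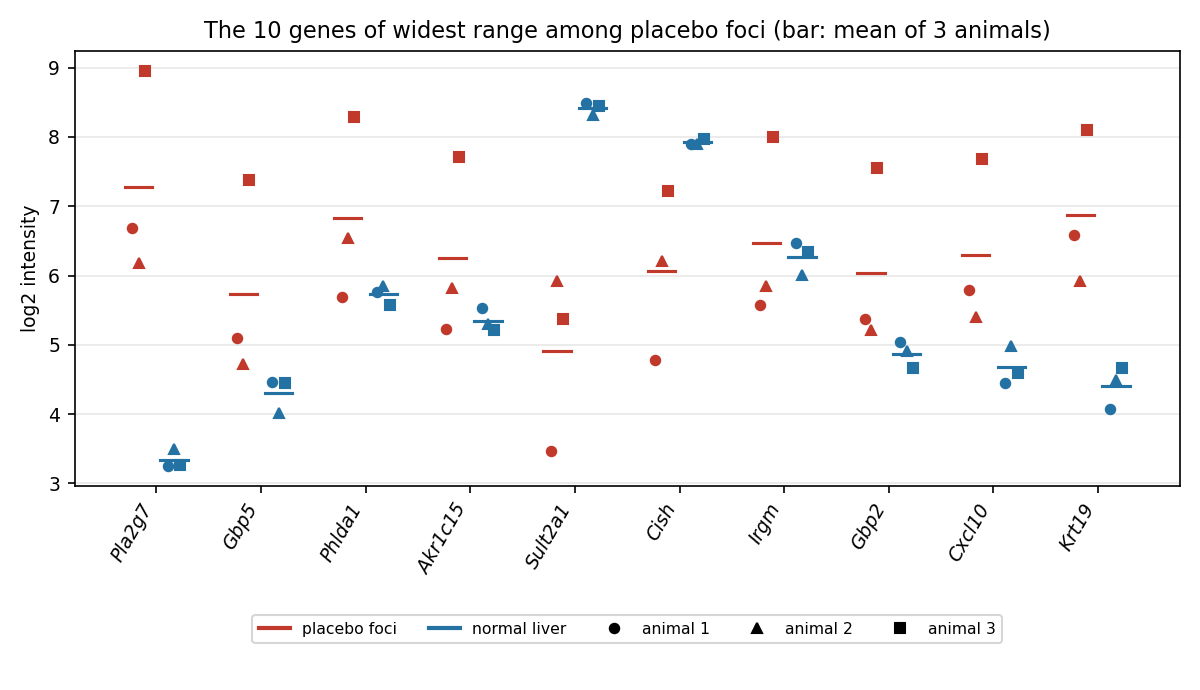
Log2 intensity in each animal of the 10 genes of widest range among placebo foci, in red, beside normal liver, in blue. The square of placebo animal 3 is the highest red point in 9 of the 10 genes, the exception being Sult2a1.

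AAF/PH liver shares AAF and hepatectomy with the foci, but the labels give its rats no diethylnitrosamine and no placebo pellet. It was also taken earlier and not chosen by GSTP, and these differences cannot be told apart here. The difference between both tissues was tested gene by gene for the genes already named. In that contrast 4.19% of genes were called. Nqo1 was higher in the foci than in AAF/PH liver: its geometric mean was 529 in placebo foci, 25.8 in AAF/PH liver and 28.6 in normal liver, and placebo foci exceeded AAF/PH liver by 4.36 ± 0.45 log2 (limma adjusted p = 4.84e-05). Likewise Akr1b8 exceeded it by 4.01 ± 0.46, Ptgr1 by 4.04 ± 0.44 and Gclc by 3.39 ± 0.37 (adjusted p = 0.000126, 8.8e-05 and 8.49e-05). For Anxa2 the difference was not called, at 0.79 ± 0.45 (limma adjusted p = 0.452), with geometric means of 310.2 in placebo foci, 179.5 in AAF/PH liver and 34.8 in normal liver. Car2 was at 1.71 ± 0.54 and not called (adjusted p = 0.104). Several of the falls were not told apart in these tissues: Aox3 differed by 0.09 ± 0.22, Inmt by 0.01 ± 0.19 and Slc27a5 by 0.02 ± 0.25 (adjusted p = 0.91, 0.993 and 0.983). Aox3, at a geometric mean of 18.45 in placebo foci, and Inmt were dim there. Without detection calls such levels cannot be set against background, so equal expression is not shown. Other genes among the falls were lower in the foci than in AAF/PH liver. Crot was at 39.5 in placebo foci, 356 in AAF/PH liver and 323 in normal liver (-3.17 ± 0.24, adjusted p = 6.71e-06), and Cdh17, Angptl4 and Pdk4 stood at -2.72 ± 0.32, -2.56 ± 0.32 and -2.52 ± 0.34 (adjusted p = 0.000135, 0.000258 and 0.000564). Cyp2c11 and Sult1c3 were the reverse, with placebo foci above AAF/PH liver by 2.75 ± 0.43 and 2.50 ± 0.46 (adjusted p = 0.00161 and 0.00547).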

How the data were processed

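The fit used 14 arrays of 12 rats in 4 groups, 3 rats per group. One rapamycin rat had 3 arrays, averaged on the log2 scale. The deposited table holds intensity values per probe set on a linear scale, normalized by the authors: the submitters' processing notes name Partek 6.6 and RMA, and further settings are not given in the sources used here. It carries no detection calls, and no per-sample column was left out. Here log2 was taken with no pseudocount. Of 28826 probe sets, 15209 had 1 gene symbol in the platform annotation, 306 several and 13311 none, and the probe set with the highest mean log2 stood for each of 494 genes with more than 1, which left 14497 genes with no filter on low values. Precision is limited by the number of animals and, in dim probe sets, by signal over background. RefSeq held 14471 of the genes.

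The groups were fitted together in limma 3.58.1 (R 4.3.3, lmFit and eBayes, 8 residual degrees of freedom), with adjusted p over all 14497 genes. The labels describe separate animals. In simulated data of the same size the fit recovered 59 of 100 genes shifted by 1 log2 unit and 97 of 100 shifted by 2. It also called 9 unchanged genes. The simulation had independent normal noise and 200 changed genes of 14497, a smaller share than was called in the data. Its counts therefore need not hold for the data. The members and gene lists were chosen with earlier results of these data known. Genes named are Gstp1, the 25 largest rises and 25 largest falls among called genes that did not overlap, up to 6 called members (by p) and 3 others (by intensity) of each list, the isoforms and markers asked for, and the 10 genes of widest range among placebo animals. Alternatives were other scalings, filters, probe set rules, variance models, a replicate block, and leaving out each animal.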

Additional observations from a re-analysis of the deposited data

Results flagged for a closer look

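Of the 13311 probe sets that the platform annotation pairs with no gene symbol, and which enter no comparison above, 483 were called between placebo foci and normal liver by the same limma fit, 293 as higher and 190 as lower (3.63%). Their log2 differences reached 3.49 and -3.95. They are unnamed here.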

How the results depend on the processing

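The 1194 calls comprised 413 rises and 781 falls, with 757 at 2-fold or more. With the 6 animals alone there were 2296 calls, 710 higher and 1586 lower. Array weights gave 6442 calls, 2851 higher and 3591 lower. Of 34 uncalled genes followed by name, 15 gained a call with the 6 animals alone and 24 with array weights. The 145 called genes followed by name all kept theirs in both. Quantile normalization gave 663 higher and kept 989 of the 1194. Testing every probe set gave 661 higher. With log2(value + 16), 487 calls were at 2-fold or more. Leaving out 1 of the 6 animals gave 606 to 1108 calls, 225 to 326 higher, 381 to 798 lower and 495 to 813 at 2-fold or more. The count depended on the animal, with 606 calls without normal liver animal 1 and 1108 without normal liver animal 2. The cause was not tested. A replicate block gave 921 calls, all among the 1194. Residuals of same-numbered animals of the 2 groups correlated at -0.21, 0.35 and 0.26. Those of differently numbered animals correlated at -0.45 to 0.34, so the numbers were not taken as pairs. Median centring, which moved the median of all genes by 0.07 log2 to -0.03, left 26.6% of calls higher. Among uncalled genes named outside the clock list, those that changed sign were Arg1 (0.04), Gstm2 (0.23) and Mgst1 (0.00) after quantile normalization and Irgm with array weights (-0.35) and without single animals (-0.56 to 0.65). With no detection calls in the table, dim genes could not be set against background, and 3 animals a group limit the precision.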
